A study of Mus musculus with 208 samples.

Results

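The TGF-beta group examined here held 10 genes of the pathway, namely the ligands Tgfb1, Tgfb2 and Tgfb3, the latency protein Ltbp1, the receptors Tgfbr1 and Tgfbr2, the signal transducer Smad2, and the downstream genes Ccn2, Fstl1 and Meox1. All probes that the platform annotation assigns to these symbols were taken, which gave 19 of the 25697 gene probes on the array and 10 of the 16593 genes with a symbol. Ltbp1 had 6 probes, Tgfbr1 had 4, Tgfbr2 had 2 and each of the other genes had 1. Left ventricular RNA of female mice of the Hybrid Mouse Diversity Panel (HMDP), a collection of classical inbred and recombinant inbred strains, was hybridized to Illumina MouseRef-8 BeadChips. The ISO group was treated with isoproterenol, a beta-adrenergic agonist, for 3 weeks from an age of 8 to 9 weeks, and the control group was left untreated over the same period, although another field of the labels gives an age of 10 weeks for every sample. The sample labels give a dose of 30 ug per g body weight per day, whereas the text of the series gives 20. There were 208 arrays over 99 strains, with 93 strains in the ISO group (9 of them on 2 arrays) and 93 in the control group (13 of them on 2 arrays), and 87 strains had both conditions. RNA of the mice of a strain and condition was pooled, so that an array stands for a strain and not for a mouse.

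TGF-beta ligands are secreted in a latent complex that binding proteins such as Ltbp1 attach to the extracellular matrix. Once released, a ligand binds the type II receptor Tgfbr2, which recruits and activates the kinase of the type I receptor Tgfbr1, and this kinase phosphorylates Smad2 and Smad3, which enter the nucleus with Smad4. In the heart the pathway is known for driving fibroblasts to deposit matrix after injury or overload. Ccn2, formerly Ctgf, is a matricellular protein and a classical TGF-beta target, Fstl1 is a secreted glycoprotein of the follistatin family made by mesenchymal cells, and Meox1 is a homeobox transcription factor of stressed cardiac fibroblasts.

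Promoters of 4 members that differed in their response are shown to set their sequences side by side: Tgfbr2 and Fstl1, which were higher with ISO, Ltbp1, which was lower, and Tgfb2, which was not called. They are RefSeq sequences of build GRCm38.p6, from 250 bases before to 50 bases after the annotated start, 5′ to 3′ on the strand of the gene. Capitals mark the SMAD box, the letters CAGAC or, on the other strand, GTCTG.
Tgfbr2, chr9:116175314-116175613, minus strand: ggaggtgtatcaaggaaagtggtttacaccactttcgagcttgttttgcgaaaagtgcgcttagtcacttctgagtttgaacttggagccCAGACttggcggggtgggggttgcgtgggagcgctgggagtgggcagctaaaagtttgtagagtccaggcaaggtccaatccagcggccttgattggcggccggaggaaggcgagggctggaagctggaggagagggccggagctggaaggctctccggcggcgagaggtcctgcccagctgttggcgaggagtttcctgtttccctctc
Fstl1, chr16:37776805-37777104, plus strand: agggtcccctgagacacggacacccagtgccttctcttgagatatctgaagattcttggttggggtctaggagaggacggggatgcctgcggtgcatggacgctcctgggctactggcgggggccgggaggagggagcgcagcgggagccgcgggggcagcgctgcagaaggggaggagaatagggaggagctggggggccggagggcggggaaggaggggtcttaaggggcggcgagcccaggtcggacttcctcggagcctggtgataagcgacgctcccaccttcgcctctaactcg
Ltbp1, chr17:75005279-75005578, plus strand, the first of 2 annotated starts: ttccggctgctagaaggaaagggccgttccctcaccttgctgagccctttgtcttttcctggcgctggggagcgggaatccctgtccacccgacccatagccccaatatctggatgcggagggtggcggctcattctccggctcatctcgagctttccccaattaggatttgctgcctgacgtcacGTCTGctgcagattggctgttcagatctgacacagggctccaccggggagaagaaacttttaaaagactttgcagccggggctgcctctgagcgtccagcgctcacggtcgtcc
Tgfb2, chr1:186705940-186706239, minus strand: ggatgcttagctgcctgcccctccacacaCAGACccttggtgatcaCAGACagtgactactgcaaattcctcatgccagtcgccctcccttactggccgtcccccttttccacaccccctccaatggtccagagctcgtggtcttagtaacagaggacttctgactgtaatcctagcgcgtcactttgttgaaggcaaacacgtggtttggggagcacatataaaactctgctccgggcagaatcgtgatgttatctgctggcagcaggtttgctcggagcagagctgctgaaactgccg
The Tgfbr2 promoter held 1 SMAD box, which began at -160 relative to the start, the Ltbp1 promoter held 1 at -64, and the Tgfb2 promoter held 2 at -221 and -204. These letters were not in the Fstl1 window. A SMAD box was present in 49.6% of all 32851 promoters of this length, so its presence in 3 of these 4 sets none of them apart. The AP-1 letters TGANTCA, found in 7.81% of all promoters, and the TEAD letters GGAATG or CATTCC, found in 14.7%, were in none of the 8 windows of the 6 members with a promoter here, which were Fstl1, Ltbp1, Tgfb1, Tgfb2, Tgfbr1 and Tgfbr2. Ccn2, Tgfb3 and Meox1 had no entry among these promoters. The chromosome of Smad2 was left out of the search for members, so a Smad2 promoter was not examined.

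Levels are given on the log2 scale after the background correction and quantile normalization described below, and arrays of a strain and condition were averaged. A probe was called when its Benjamini-Hochberg adjusted p in limma with strain as a block was under 0.05 and its log2 difference, ISO minus control, was over 0.2 in either direction, the thresholds of the study's methods. A log2 difference of 0.2 is a rise of 14.9%. Of all probes, 3.72% were called higher with ISO and 3.53% lower, 7.25% in all. Among the 10 genes, each taken at its brightest probe, 6 were called higher (Fstl1, Meox1, Ccn2, Tgfb3, Tgfbr2 and Tgfbr1), 2 were called lower (Ltbp1 and Smad2) and 2 were not called (Tgfb1 and Tgfb2). The median log2 difference of these 10 probes was 0.22, against -0.003 over 1 probe of every gene. Over all 19 probes the median was 0.05, because 9 further probes of Tgfbr1, Tgfbr2 and Ltbp1 were dim and none of them was called. In RNA of a whole ventricle, more or fewer cells of a type and more or less RNA per cell cannot be told apart.

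Several features of the arrays bear on every value that follows. Median intensity was 97.9 to 173.2 on ISO arrays and 102.6 to 179.4 on control arrays, and the share of probes detected was 28.9% to 50.3% on ISO arrays and 38.1% to 49.6% on control arrays. Treatment nearly coincided with the place on the BeadChip, since all but 5 ISO arrays lay in every second position of the chip (B to H) and all but 7 control arrays in the positions between (A to G). In a check of 196 arrays against arrays of the other condition, 122 were most similar to an array of the strain on their label. On 5 BeadChips (40 arrays) none of the arrays checked was, so the strain labels there are in doubt. Not all of those 40 could be checked, and on some of these BeadChips as few as 2 or 3 were. Connectivity was low for 2 ISO arrays (AXB19/PgnJ and NOD/LtJ) and 3 control arrays (AXB-4/PgnJ, AXB-6/PgnJ and BXD69/RwwJ). BeadChips fall into 3 sets by their serial numbers, and the response differed between sets for 13% of all probes.

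**Figure D1:**
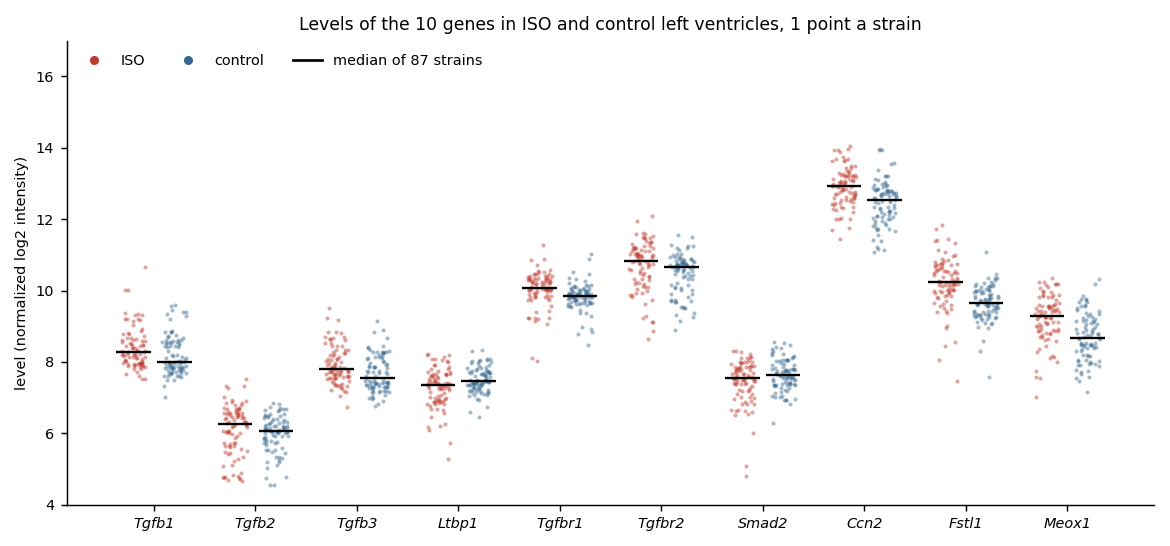
Normalized log2 level (vertical axis) of the brightest probe of each of the 10 genes (horizontal axis) in ISO (red, left) and control (blue, right) hearts, 1 point for each of 87 strains, black lines at the medians. Fstl1 has its median at 10.24 in ISO hearts and 9.64 in control hearts, and the ranges of the groups overlap for every gene. Levels of different probes cannot be set against each other.

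The largest rises among the 10 genes were in the downstream genes Fstl1, Meox1 and Ccn2. Fstl1 (chromosome 16, 37777055 to 37836516, GRCm38.p6) ranged over 7.46 (lowest), 10.24 (median) and 11.84 (highest) in ISO hearts, against 7.59, 9.64 and 11.08 in control hearts. Most ISO hearts were above the control median (73 of 87 strains), and 8 were above every control heart. Its log2 difference was 0.58 ± 0.07 (SE, n = 87 strains), a rise of 49%, with an adjusted p of 1.3e-09, and the level was higher with ISO in 70 of 87 strains. The 2 lowest ISO responses of Fstl1 were -1.66 in SJL/J and -1.15 in AXB19/PgnJ, and the 2 highest were 2.03 in AXB-4/PgnJ and 1.88 in BXD66/RwwJ. The highest response thus rests on a control array of low connectivity, and 1 of the 2 lowest on an ISO array of low connectivity.

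Meox1 (chromosome 11, 101877510 to 101894354) ranged over 7.01, 9.28 and 10.34 in ISO hearts and 7.17, 8.68 and 10.33 in control hearts, as lowest, median and highest. The groups covered nearly the same range, and only 1 ISO heart was above every control heart, but 73 were above the control median. The log2 difference was 0.52 ± 0.07, with an adjusted p of 1.29e-09, and Meox1 was higher with ISO in 72 of 87 strains. The highest response was 2.41 in KK/HlJ, whose arrays lay on a BeadChip of doubtful strain labels, and the lowest was -0.94 in BXD50/RwwJ. Ccn2 (chromosome 10, 24595442 to 24598683) ranged over 11.44, 12.94 and 14.05 in ISO hearts and 11.08, 12.55 and 13.97 in control hearts. Its log2 difference was 0.44 ± 0.07, a rise of 35.9%, with an adjusted p of 2.26e-06, and 70 of 87 strains were higher with ISO. Ccn2 responses ran from -1.88 in AXB18/PgnJ, a strain with a control array on a BeadChip of doubtful labels, to 1.99 in BXD66/RwwJ. Without the BeadChips of doubtful labels, or without the arrays of low connectivity, the 3 downstream genes were still called higher.

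The ligands changed less. Tgfb3 ranged over 6.74, 7.82 and 9.50 in ISO hearts and 6.76, 7.55 and 9.14 in control hearts, and 3 ISO hearts were above every control heart. Its log2 difference was 0.24 ± 0.07 (adjusted p of 0.00668), with 56 of 87 strains higher. The highest Tgfb3 response, 2.07, was in CXB-11/HiAJ and the lowest, -1.47, in AXB-6/PgnJ, a strain with a control array of low connectivity. Tgfb1, the ligand most often linked to fibrosis, ranged over 7.51, 8.28 and 10.66 in ISO hearts and 7.01, 8.01 and 9.60 in control hearts. Its log2 difference of 0.19 ± 0.06 had an adjusted p of 0.012 and was of one sign in 65 of 87 strains, but it was just under the threshold of 0.2 and so was not called, while Tgfbr1 and Smad2, at 0.21 and -0.20, lay just beyond it. Its highest response, 2.11, was in AXB19/PgnJ, whose ISO array had low connectivity. Tgfb2 ranged over 4.66, 6.27 and 7.53 in ISO hearts and 4.55, 6.07 and 6.85 in control hearts and was detected on 76.5% of ISO and 86.8% of control arrays. Its log2 difference of 0.10 ± 0.07 did not pass (adjusted p of 0.401), although 10 ISO hearts were above every control heart.

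Of the latency protein Ltbp1, 1 probe (ILMN_1221564) was well detected, and it was lower with ISO. It ranged over 5.28, 7.35 and 8.23 in ISO hearts and 6.46, 7.45 and 8.33 in control hearts, so that the ISO hearts extended further down. The log2 difference was -0.23 ± 0.05, a change of -14.5%, with an adjusted p of 3.97e-04, and the level was lower with ISO in 58 of 87 strains. The lowest response was -2.14 in SJL/J and the next -1.72 in BXD21/TyJ. The other 5 Ltbp1 probes were near background: 1 was detected on 47 ISO and 45 control arrays, and each of the rest on 2 or fewer arrays of a condition, with log2 differences between -0.02 and 0.03 and adjusted p of 0.713 or more.

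Both receptors were called higher at their bright probes. Tgfbr2 (ILMN_2760979) ranged over 8.64, 10.84 and 12.09 in ISO hearts and 8.90, 10.66 and 11.56 in control hearts, with a log2 difference of 0.23 ± 0.06 (adjusted p of 0.00165) and 64 of 87 strains higher. The second Tgfbr2 probe, detected on 69 ISO and 72 control arrays, had a log2 difference of 0.11 ± 0.06 and was not called (adjusted p of 0.205). Tgfbr1 (ILMN_2602711) ranged over 8.02, 10.07 and 11.28 in ISO hearts and 8.47, 9.86 and 11.02 in control hearts, with a log2 difference of 0.21 ± 0.05 (adjusted p of 0.00233) and 63 of 87 strains higher. The lowest Tgfbr1 level of the ISO hearts was that of SJL/J. The other 3 Tgfbr1 probes were detected on at most 20 arrays of a condition and differed by 0.05 or less.

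Smad2, the transducer, was called lower by a narrow margin. It ranged over 4.79, 7.55 and 8.31 in ISO hearts and 6.29, 7.64 and 8.56 in control hearts, and 2 ISO hearts stood far below the rest, with responses of -3.33 in SJL/J and -2.79 in AXB19/PgnJ. The log2 difference was -0.20 ± 0.06 (adjusted p of 0.0119), with 54 of 87 strains lower, but the median response over strains was only -0.11. Without the arrays of low connectivity, of which the ISO array of AXB19/PgnJ is 1, the difference was -0.19 and under the threshold. The ISO array of SJL/J, with a connectivity of -2.191 SD, was not among those left out.

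The members' differences varied between the sets of BeadChips. Taking the sets alone, Fstl1 differed by 0.02 in set 1 (24 strains), 0.76 in set 2 (52 strains) and 0.74 in set 3 (16 strains). Over pairs on the same BeadChip the mean Fstl1 response was 0.06 ± 0.74 in set 1, 0.80 ± 0.51 in set 2 and 0.74 ± 0.77 in set 3 (SD, 24, 48 and 15 strains), and limma's test of the difference between sets, adjusted over all probes, gave a p of 0.00296. Meox1 responses averaged 0.30, 0.71 and 0.22 in the 3 sets in that order (adjusted p of 0.0372), Tgfb3 responses 0.03, 0.41 and -0.17 (adjusted p of 0.0478), Tgfb2 responses 0.06, 0.31 and -0.35 (adjusted p of 0.0204) and Tgfb1 responses 0.49, 0.21 and -0.21 (adjusted p of 0.0174). Ccn2 averaged 0.19, 0.59 and 0.27, and the difference between sets did not pass (adjusted p of 0.182). Of the 87 strains, 82 had their pairs in 1 set and 5 in 2 sets, so that set and strain can hardly be told apart.

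The place on the BeadChip could be examined only through the 12 arrays outside the usual positions of their condition, all of them on 3 BeadChips of doubtful strain labels, and none of the 7 with a strain in both conditions resembled that strain best. Among control hearts, the 7 arrays in the ISO places (B to H) were compared with those in the usual control places (A to G), with BeadChip in the fit. Of the 99 arrays in the usual places, only those on the same 3 BeadChips therefore bear on the difference. It was 0.67 ± 0.23 (log2, SE) for Fstl1, 0.51 ± 0.27 for Ccn2 and 0.49 ± 0.30 for Meox1. A BeadChip among the 3 held as control arrays only BXD86/RwwJ and, in a usual place, BXD69/RwwJ, an array of low connectivity, with Fstl1 at 10.47 and 9.10. None of the 19 member probes was called in limma (adjusted p of 0.332 for Fstl1, 3 probes at an unadjusted p under 0.05), and 0.00389% of all probes were called. These differences are about as large as the ISO responses of the same genes. With position as a covariate in a fit of single arrays, the ISO difference was 0.18 ± 0.24 for Fstl1, 0.22 ± 0.24 for Meox1 and 0.32 ± 0.24 for Ccn2. Other members moved away from 0, with -0.50 ± 0.18 for Ltbp1, -0.55 ± 0.21 for Smad2 and 0.39 ± 0.25 for Tgfb3. No member probe was called in limma (5 of 19 at an unadjusted p under 0.05), in a fit that called 1.36% of all probes. This fit was chosen after seeing the data. The standard errors were wider than in the paired fit, and Timp1, which had the highest ISO difference of the listed pathway genes at 1.86 ± 0.15, was at 0.38 ± 0.50 in this fit. Position and treatment cannot be told apart in the remaining arrays.

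**Figure D2:**
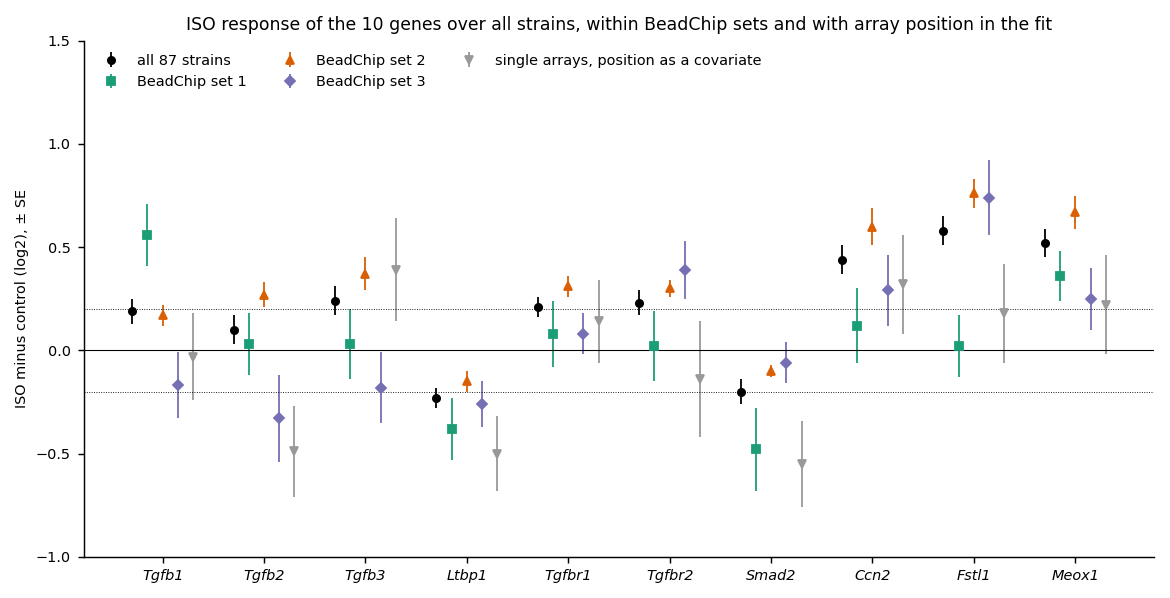
ISO minus control difference (log2, bars ± SE) of the brightest probe of each gene over all 87 strains (black), within each of 3 BeadChip sets, and in a fit of single arrays with array position as a covariate (grey); dotted lines mark the threshold of 0.2. Fstl1 is at 0.58 over all strains but at 0.02 in set 1, and Tgfb3 is below 0 in set 3.

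Response did not separate the strain panels. No probe on the array was called for a different ISO response among the 6 panels (0% of 25697 probes in limma, with 2240 at an unadjusted p under 0.05), and among the 19 member probes 2 dim ones, of Tgfbr1 and Ltbp1, had an unadjusted p under 0.05. Fstl1 responses averaged 0.50 ± 0.72 in classical strains (SD, n = 27), 0.55 ± 0.88 in AXB/BXA (n = 16), 0.77 ± 0.54 in BXD/RwwJ (n = 22), 0.46 ± 0.54 in BXD/TyJ (n = 11), 0.36 ± 0.98 in BXH (n = 4) and 0.62 ± 0.66 in CXB strains (n = 7), with limma's adjusted p at 0.927. Fstl1 was higher with ISO in 21 of 22 BXD/RwwJ strains and in 11 of 16 AXB/BXA strains. These BXD/RwwJ strains all lay in BeadChip set 2, and the AXB/BXA strains were spread over the 3 sets. A difference between these panels therefore cannot be told apart from a difference between sets. Ccn2 averaged between 0.10 in BXH and 0.63 in BXD/RwwJ strains (adjusted p of 0.925), and Meox1 between 0.30 in BXD/TyJ and 0.69 in BXD/RwwJ strains (adjusted p of 0.806). Tgfbr2 averaged between -0.04 in BXH and 0.31 in BXD/RwwJ, and Ltbp1 was below 0 on average in all 6 panels, between -0.36 in BXD/TyJ and -0.10 in BXD/RwwJ.

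**Figure D3:**
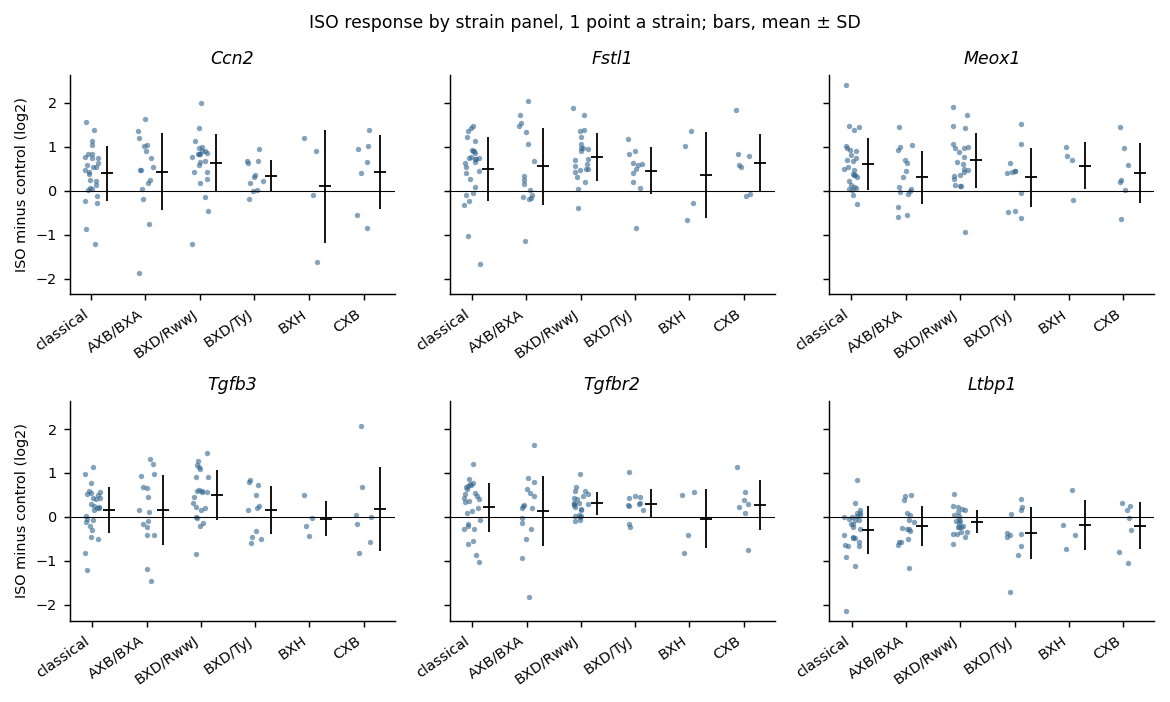
ISO minus control difference (log2, vertical axis) by strain panel (horizontal axis) for 6 genes, 1 point a strain, with the mean ± SD of each panel beside the points. Ccn2, Fstl1 and Meox1 have means above 0 and Ltbp1 below 0 in every panel, and the points of the panels overlap.

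In untreated hearts, 0.985% of all probes differed in level between the panels in limma and no member probe did (5 of 19 at an unadjusted p under 0.05); Tgfbr2 came nearest among the bright probes (adjusted p of 0.133), at 10.80 ± 0.54 in BXH (n = 4) and 10.73 ± 0.26 in BXD/RwwJ (n = 24) strains and 10.23 ± 0.57 in AXB/BXA strains (n = 18). Among the parents of the panels, single strains went either way. Fstl1 was higher with ISO by 1.21 in BALB/cByJ and lower by 1.04 in C3H/HeJ (a response of -1.04), while C57BL/6J, A/J and DBA/2J had responses of -0.05, 0.26 and -0.25. Ccn2 responses in these 5 strains ran only from -0.12 in C57BL/6J to 0.58 in BALB/cByJ. Repeated arrays give a measure of error: over 22 pairs of arrays of the same strain and condition, none of them on 1 BeadChip, the SD within a pair was 0.58 for Fstl1, 0.56 for Ccn2, 0.72 for Meox1 and 1.06 for Tgfbr2, against an SD between strains of 0.74 in ISO and 0.50 in control hearts for Fstl1, 0.59 and 0.60 for Ccn2, 0.66 and 0.66 for Meox1, and 0.68 and 0.56 for Tgfbr2. In 14 of the 22 pairs an array lay on a BeadChip of doubtful labels, and the other 8 pairs had SDs of 0.53 for Fstl1, 0.73 for Ccn2, 0.75 for Meox1 and 0.98 for Tgfbr2. The ISO and control hearts of a strain shared a BeadChip, so these values need not be the error of a response.

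Levels of a strain in its ISO heart nonetheless tracked those in its control heart for most bright probes. Pearson's r over 87 strains was 0.66 for Tgfbr2 (Spearman's rho of 0.72), 0.56 for Meox1 (0.57), 0.54 for Tgfb1 (0.67), 0.53 for Ltbp1 (0.51), 0.41 for Fstl1 (0.40), 0.27 for Ccn2 (0.32) and 0.24 for Tgfb3 (0.22). Of 19 probes, 15 had an adjusted permutation p under 0.05 (100000 permutations, two-sided, adjusted over 19 probes, the smallest adjusted value being 2.71e-05). Without the 2 strains farthest from the median control level, r was 0.68 for Tgfbr2, 0.60 for Meox1, 0.40 for Fstl1 and 0.24 for Ccn2. All 87 strains had both hearts on 1 BeadChip, so the BeadChip is shared as well as the strain. For every correlation within sets, each strain was placed in 1 set, but its average kept any second array from another set. Most strains of set 1 had such an array, so these values do not isolate the arrays of a set. Among the strains so placed, Meox1 had r of 0.39, 0.54 and 0.58 and Fstl1 0.51, 0.38 and 0.44. Tgfbr2 had -0.09, 0.42 and 0.34 and Ccn2 -0.07, 0.40 and 0.28, so that the pooled relation of the last 2 genes did not hold in set 1. It did not hold in set 3 for Tgfb1, at -0.34, nor for Tgfb3 in sets 1 and 3, at 0.04 and 0.07.

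The responses of the members were related to each other, with 45 pairs compared at 1 probe a gene. Of these, 28 had an adjusted permutation p under 0.05 for Pearson's r, 25 positive and 3 negative, and 21 passed for Spearman's rho as well. The highest r was that of Tgfbr2 with Fstl1 at 0.68 (rho of 0.73, adjusted p of 6.43e-05 for rho, 0.63 without the 2 strains farthest from the median), and it held within the sets at 0.55, 0.67 and 0.80. Tgfbr1 with Ccn2 had 0.59 (within sets 0.52, 0.64 and 0.68), Tgfb3 with Meox1 0.53 (0.28, 0.58 and 0.42) and Tgfbr1 with Fstl1 0.46 (0.24, 0.73 and 0.52). The 3 downstream genes had r of 0.42 for Ccn2 with Fstl1, 0.42 for Fstl1 with Meox1 and 0.35 for Ccn2 with Meox1, and the last was -0.14 in set 1. Both genes of a pair were read from the same arrays of a strain, so whatever differs between those arrays enters both.

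Although some pairs of Ltbp1 and of Smad2 had r below 0, the negative relations that passed were all those of Tgfb1. Its response had r of -0.44 with Smad2, -0.43 with Tgfbr2 and -0.28 with Fstl1, but without the 2 strains farthest from the median these were -0.15, -0.28 and -0.10, and the relation with Fstl1 was -0.44, 0.21 and -0.36 within the sets, so that the relations with Smad2 and Fstl1 no longer held without those strains. That with Tgfbr2 was -0.17 without the arrays of low connectivity and -0.17 in set 2, but -0.40 in set 1 and -0.53 in set 3. Without the BeadChips of doubtful labels, Tgfb1 had r of -0.62 with Tgfbr2, -0.41 with Smad2 and -0.39 with Fstl1. Tgfb1 was positively related to Tgfb3 (0.33) and Meox1 (0.35), but without the BeadChips of doubtful labels these were 0.03 and 0.07. Within the sets Tgfb1 with Tgfb3 was -0.14, 0.31 and 0.85, and Tgfb1 with Meox1 was 0.31, 0.50 and 0.31. Smad2 with Fstl1 had r of 0.50 but rho of 0.19, with 0.28 left without the 2 farthest strains and -0.30 in set 2.

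**Figure D4:**
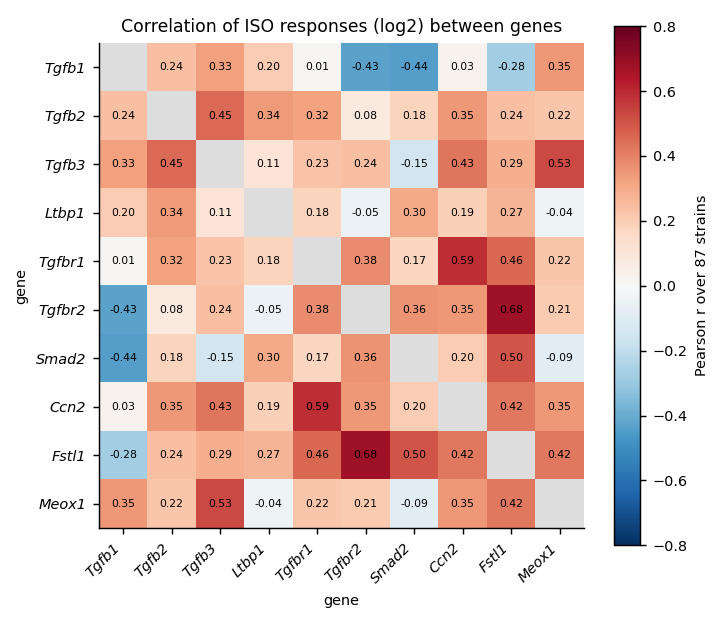
Pearson correlation over 87 strains of the ISO minus control differences (log2) between the 10 genes, from blue (negative) to red (positive). Tgfbr2 with Fstl1 is highest at 0.68, and Tgfb1 is negative with Smad2 (-0.44) and Tgfbr2 (-0.43).

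Each member's response was also compared with that of the other 16592 genes. The 5 genes most like Ccn2 were Lox, which cross-links collagen (r of 0.72), Medag, the microfibril gene Mfap5, the serpin Serpina3n and Itgbl1 (0.66 to 0.70), and all 5 were called higher with ISO. For Ccn2, 99% of all genes had an r under 0.438. Fstl1 was most like Lum, a small leucine-rich proteoglycan (0.75), then Calu, Ccdc80, Arpc5 and Pros1. Meox1 was most like Loxl1 and Anxa2 (0.66 each), then Fxyd5, Mfap5 and Gpx3. Tgfb3 was most like Ltbp3, another latent TGF-beta binding protein (0.82), then Mmp23, Loxl1, Bgn and Bmp1, the protease that trims procollagen (0.78). Tgfbr2 was most like Vim, the intermediate filament of mesenchymal cells (0.81), and App (0.79), then Anxa5, Prnp and Lamc1, and Tgfbr1 was most like Emp1 (0.75), then Trp53inp1, Atp6ap2, Nptn and Stk17b. By contrast, the genes most like Tgfb1 (Tmem160, Atp6v1f, Naa80, Flad1 and Slc4a2, r of 0.79 to 0.86), Tgfb2 (2510009E07Rik, Bicc1, Klhl6, Hnrnpab and Lipa), Ltbp1 (Ro60, Cct8, Zfp281, Ppp3cb and Gucy1a1) and Smad2 (Psma4, Fem1b, Ss18, Btbd1 and Strn3) were not called in either direction.

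The other genes of the pathway were taken from lists at 1 probe a gene. Of 21 further textbook targets with a probe, 13 were called higher and none lower, with a median log2 difference of 0.36. Over all probes of the array, dim ones included, 3.72% were called higher and 3.53% lower. Timp1, an inhibitor of metalloproteinases, differed by 1.86 ± 0.15 (adjusted p of 3.31e-17), the matricellular gene Tnc by 0.99 ± 0.11, Col3a1 by 0.70 ± 0.08 and Lox by 1.06 ± 0.13. Postn, a matricellular gene of activated fibroblasts, was among the 8 not called, and its probe was detected on no control array and 2.94% of ISO arrays. The count was 14 without the BeadChips of doubtful labels and 13 without the arrays of low connectivity, but 3, 14 and 0 in sets 1, 2 and 3 alone and 0 with position as a covariate.

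Upstream of the targets the calls differed between lists, and 7.25% of all probes were called in either direction. Among 10 further genes of latency and activation 3 were higher, the membrane protease Mmp14 (0.51 ± 0.07, adjusted p of 5.06e-08), Ltbp3 (0.29 ± 0.06) and Emilin1 (0.24 ± 0.06), which restrains ligand processing, and 1 was lower, the integrin Itgb6 (-0.61 ± 0.09, adjusted p of 1.67e-07), whose dimer frees the ligand from its latent complex. Of 8 further ligands only the activin subunit Inhba was called (0.31 ± 0.09, adjusted p of 0.0129). None of 10 further receptors was called in limma (4 at an unadjusted p under 0.05), and the smallest p belonged to Acvr1 (0.13 ± 0.03) and Acvr2b (-0.19 ± 0.05), which had adjusted p of 0.00214 and 0.0028 but differences under the threshold. None of 5 further signalling Smads was called (2 at an unadjusted p under 0.05), with Smad3 at -0.13 ± 0.05 (adjusted p of 0.0374) and Smad1 at -0.12 ± 0.05. Of 12 inhibitors with a probe, Nbl1, a secreted antagonist of bone morphogenetic proteins, was higher (0.50 ± 0.07, adjusted p of 7.7e-09) and 11 were not called. Among relatives of the downstream members, Ccn5 (0.90 ± 0.16) and Sparc (0.35 ± 0.05) were higher, while Ccn1 (-0.18 ± 0.08), Ccn4 (-0.14 ± 0.09) and Meox2 (-0.07 ± 0.05) were not called.

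Some fibroblast and macrophage markers were called higher, and most markers of the other cell types were not called. The shares over all probes, dim ones included, were 3.72% called higher and 3.53% called lower. Col1a1 and Col3a1 of the fibroblast list and Acta2 of the smooth muscle and pericyte list were also textbook targets above. Of 10 fibroblast markers, 5 were called higher and none lower, and their summed level ranged over 10100 (lowest), 20400 (median) and 40800 (highest) in ISO hearts and 12300, 17600 and 30800 in control hearts; Col1a1 (0.64 ± 0.10), Mfap5 (0.82 ± 0.09) and Tcf21 (0.37 ± 0.07) were higher, whereas Pdgfra (0.00 ± 0.05), Thy1 (0.01 ± 0.05) and Dcn (0.08 ± 0.04) were not called. Of 6 macrophage markers 4 were higher, among them Lyz2 (0.82 ± 0.12), with sums of 1700, 5060 and 19200 in ISO hearts and 748, 3600 and 13000 in control hearts. None of 7 cardiomyocyte markers was called in limma (2 at an unadjusted p under 0.05), with a median sum of 132000 in ISO and 133000 in control hearts. All 7 were detected on 83% or more of the arrays of each condition. Of 8 endothelial markers 1, Tie1, was lower (-0.24 ± 0.07), of 7 smooth muscle and pericyte markers 2 were higher (Acta2 and Cspg4), of 4 platelet markers 1 was higher (Pf4), and none of 3 lymphocyte, 4 epicardial and 4 atrial markers was called (1, 1 and 1 at an unadjusted p under 0.05).

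Over strains, the mean response of the 10 fibroblast markers was compared with each member. It had r of 0.78 with Fstl1 (rho of 0.82, 0.79 without the 2 strains farthest from the median, 0.45, 0.93 and 0.89 within sets 1, 2 and 3), 0.66 with Tgfbr2 (within sets 0.60, 0.76 and 0.72), 0.61 with Ccn2 (0.70, 0.60 and 0.38), 0.57 with Tgfbr1 (0.30, 0.80 and 0.65), 0.57 with Tgfb3 (0.40, 0.83 and 0.04) and 0.52 with Meox1 (0.14, 0.58 and 0.44). These 6 genes had the adjusted permutation p of 8.18e-05, the smallest reached over the 90 relations of 10 members with 9 marker lists. Relations with other lists reached it too. The smooth muscle and pericyte markers had r of 0.58 with Tgfb3 (within sets 0.32, 0.47 and 0.83) and 0.53 with Tgfb1 (0.28, 0.56 and 0.79). The endothelial markers had r of 0.48 with Tgfb3 (0.39, 0.29 and 0.74). Tgfb1 had r of -0.05 with the fibroblast markers and -0.66 with the cardiomyocyte markers (within sets -0.62, -0.58 and -0.64), and Ltbp1 0.15 and -0.08. Smad2 had 0.23 (rho of 0.07) and 0.44 (rho of 0.14), and the second was 0.13 without the 2 farthest strains and -0.20 in set 3. The macrophage markers had r of 0.49 with Fstl1 (within sets -0.13, 0.76 and 0.80) and 0.41 with Ccn2 (0.56, 0.51 and 0.04). The part of cell composition in the members' responses was not tested.

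**Figure D5:**
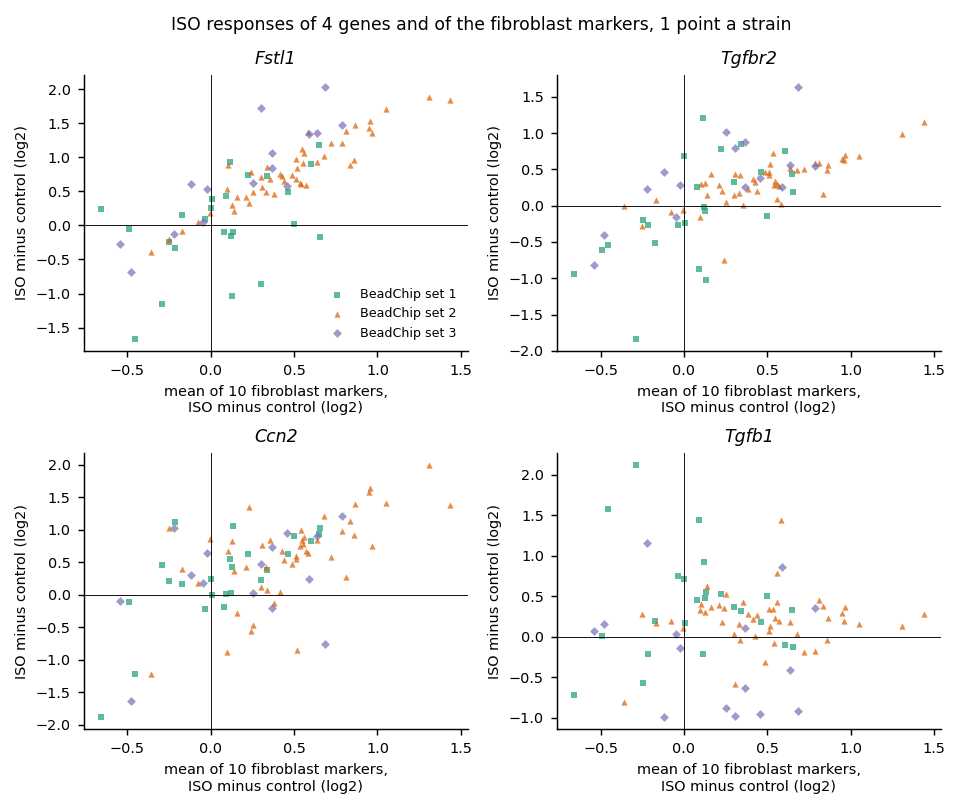
ISO minus control difference (log2) of Fstl1, Tgfbr2, Ccn2 and Tgfb1 (vertical axes) against the mean difference of 10 fibroblast markers (horizontal axes), 1 point for each of 87 strains, by BeadChip set. Fstl1 follows the markers with r of 0.78 and Tgfb1 does not, with r of -0.05.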

How the data were processed

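Left ventricular RNA, pooled by the authors over the mice of a strain and condition, was hybridized to Illumina MouseRef-8 BeadChips (102 ISO and 106 control arrays, 8 to a BeadChip, 26 BeadChips). The authors exported probe intensity values and a detection p-value for each probe and array from GenomeStudio (2010.3), and these were deposited without normalization. The authors also deposited normalized log2 values (neqc in limma), which served as an alternative and differed from the values computed here by a median of 0.00057, each column being nearest to its own array. The intensities were background-corrected and quantile-normalized with neqc (limma 3.58.1, R 4.3.3, offset 16) over 25697 gene probes; 829 control probes were not tested, and gene names come from the platform annotation. The methods of the study drop probes over known variants, but the deposited tables hold all 25697, and such probes were not removed here. Arrays have no read depth. The number of arrays, signal near background and the spread between repeated arrays limit the precision.

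Arrays of a strain and condition were averaged. ISO was compared with control over 87 strains in limma with strain as a block, because both hearts share a genotype, with Benjamini-Hochberg adjustment over all probes. As each strain and condition was mostly 1 pool, p-values rest on the spread of the ISO minus control differences over strains. This spread holds the error of pools and arrays as well as differences between strains. Strain panels were compared by limma's F test on the response, and correlations over strains by two-sided permutation tests (100000 permutations, Python 3.11.15, scipy 1.17.1). Of several probes of a gene, the one with the highest mean stood for the gene in lists and correlations. The named genes were all members, up to 4 called genes of each pathway list by smallest p (or 2 where none was called), and the 5 genes most like each member. Ccn1, Ccn4, Meox2, Postn and the markers named singly were chosen after their values were seen. The members and lists were chosen with earlier results of these data known. Alternatives were the unpaired fit, the deposited log2 values, no background correction, median scaling, other uses of repeated arrays, subsets of arrays, BeadChip sets and strains, and, added after seeing the data, array position as a covariate and the test of the response between BeadChip sets. A connectivity under -2.5 SD marked an array as low, and BeadChips fall into sets by serial number. The statistics were tested on simulated data. The strain labels were checked with 500 probes that differ between strains. Promoters come from RefSeq (GRCm38.p6).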

Additional observations from a re-analysis of the deposited data

Results flagged for a closer look

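The ISO heart of CXB-11/HiAJ stood apart from the other strains of the CXB panel (7 strains) in 3 values. Its Tgfb3 level was 9.50, against 7.16 to 8.13 in the ISO hearts of the other CXB strains. Its Tgfbr1 level was 11.28, against 9.84 to 10.36, and its Tgfbr1 response was 1.59, against -0.45 to 0.33. These were the gaps beyond Dixon's critical value among 60 groups of values examined, and chance flags about 1 group in 20. The same heart also had the highest Ccn2, Fstl1 and Tgfbr2 levels of all 87 ISO hearts.

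The ISO heart of BXD-19/TyJ, a strain with no control array that therefore entered no paired comparison, had a Tgfbr1 level of 11.20 and a Ccn2 level of 14.71, above the highest control hearts at 11.02 and 13.97. It lay on a BeadChip of doubtful strain labels, and 6 such strains were examined for 10 genes.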

How the results depend on the processing

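Of 19 member probes, 8 were called (6 higher, 2 lower), against 7.25% of all probes. The deposited log2 values, only detected probes, the arrays without BeadChips of doubtful labels and set 2 alone also gave 8, and the other alternatives that stayed near gave 6 to 9 (9 by the adjusted p alone, with no fold threshold). These 8 were not always the same probes. In set 2 alone Tgfb2 (0.27) and Tgfbr2 ILMN_1242086 (0.24) were called higher, and Ltbp1 and Smad2 were not called. Without BeadChips of doubtful labels Tgfb1 (0.24) was called higher and Smad2 was not called. Fits with the replicate block, which pairs the hearts of a strain, were the main ones, and without it 6 were called. The count was 4 with no background correction, 4 in classical strains, 5 in recombinant inbred strains, 1 in set 1, and 0 in set 3 and with array position as a covariate (limma, 3 and 5 of 19 at an unadjusted p under 0.05). Higher calls alone were 1 in set 1 and 0 in set 3 and with position. Lower calls were 1 with median scaling, with the first array, with single arrays under strain and BeadChip blocks, with pairs on the same BeadChip, without arrays of low connectivity and without doubtful BeadChips, where Ltbp1 was the one left, and 0 with no background correction, in each set, in classical strains, in recombinant inbred strains and with position. The cause of these differences in count was not tested, and the subsets also held fewer strains.

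Ccn2, Fstl1 and Meox1 kept their direction in all 16 alternatives and their call in 13, losing it in sets 1 and 3 and with position. Smad2 kept its call in 3 of 16, Ltbp1 and Tgfbr1 in 9, Tgfbr2 in 10 and Tgfb3 in 7, while Tgfb1 gained one in 7. Signs turned in set 3 for Tgfb1 (-0.17), Tgfb2 (-0.33), Tgfb3 (-0.18), Tgfbr1 ILMN_2980532 (-0.13) and Ltbp1 ILMN_2765452 (-0.09, and -0.02 in set 2). With position as a covariate they turned for Tgfb1 (-0.03), Tgfb2 (-0.49), Tgfbr1 ILMN_2708965 (-0.13) and both Tgfbr2 probes (ILMN_2760979 at -0.14 and ILMN_1242086 at -0.54). Further turns were of dim probes, namely Tgfbr2 ILMN_1242086 in set 1 (-0.11), Tgfbr1 ILMN_2980532 in recombinant inbred strains (-0.02), Ltbp1 ILMN_2694475 with median scaling (-0.02), without low connectivity (-0.01), in set 2 (-0.04) and in classical strains (-0.02), and Ltbp1 ILMN_1234779 with the first array (0.01), single arrays (0.01), set 1 (0.08) and recombinant inbred strains (0.01).

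Of 19 probes, 13 had r of 0.3 or more between ISO and control levels, 4 among the strains of set 1 and 8 among those of set 3. Of 45 pairs of responses, 18 had, and 11 among the strains of set 1. Textbook targets called higher were 13, with 3 in set 1 and 0 in set 3 and with position (2 and 3 of 21 at an unadjusted p under 0.05). Fibroblast markers called higher were 5, with 3 in classical strains, 1 in set 1 and 0 in set 3 and with position (2 and 1 of 10 at that p). The panel and position comparisons called 0 member probes under every alternative run.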
